A study of Mus musculus with 49 samples.

Results

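Neurons find, keep and sort their synaptic partners with adhesion proteins on their surface, and 12 families of genes for such proteins were followed in single cortical neurons: classical and related cadherins, clustered and other protocadherins, neurexins, neuroligins, LRRTMs, Slitrks, Lrfn genes, contactins, contactin-associated proteins, Ncam genes and Cadm genes. Members were chosen by gene symbol (symbols beginning with Cdh and a digit, Pcdh, Nrxn, Nlgn, Cntn and a digit, Cntnap, Lrrtm, Ncam, Cadm, Lrfn or Slitrk), which gave 55 of the 9020 genes in a table that holds only genes at 100 RPM or more in at least 2 cells. The cells came from wild-type (WT) CD1 mice, of which the study used males and females. Cells in contact with the ventricle were labelled at E13.5 with FlashTag, a fluorescent dye injected into the ventricle of the embryo, and at P7 the content of bright FlashTag cells in the primary somatosensory cortex was drawn into a patch pipette and sequenced (Patch-Seq). All 49 cells belong to 1 condition.

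These families work at several places of the contact. Cadherins bind their own kind on the neighbouring cell and are tied to actin by catenins, and protocadherins give cells recognition codes. Neurexins sit on the presynaptic side and bind neuroligins and LRRTMs across the cleft, Slitrks and Lrfn proteins bind receptor phosphatases of the LAR type, and contactins, Ncam and Cadm proteins carry immunoglobulin domains and act in axon growth, bundling and synapse formation.

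The labels name no animal, and the 6 experiments behind the 49 cells are not given cell by cell, so all cells count as 1 sample, and differences between cells are described without a test. Values are in RPM, the reads of a gene scaled to a common total per cell, and 10 RPM was the limit for calling a gene present. Sequencing depth lay between 209850 and 35342325 reads (median 1240101), so that 1 read stood for between 0.0283 and 4.77 RPM. The cells lay in 5 library pools of 9 to 12 cells, and pool 1 was the deepest. The neuron markers Map2, Stmn2, Syt1 and Snap25 were at 10 RPM or more in 49 of 49 cells. At least 2 of 3 excitatory markers were present in 35 cells, and at least 2 of 6 inhibitory markers in 17. Some cells were in both sets. At least 2 markers of a glial class were present in 36. By class this held in 28 cells for astrocytes, 17 for oligodendrocytes and 9 for microglia, and these sets overlap. Of the astrocyte markers, Slc1a2 was present in 39 cells and Aldoc in 25, but Slc1a3 in 13, Aqp4 in 6 and Gja1 in 4. Whether these reads came from glia was not tested. Hemoglobin genes took 1% or more of the reads in 8 cells and 68.8% in the highest. Every gene of the table reached 100 RPM in at least 2 cells, so a member is listed because of the cells where it was high, and counts over members cannot be read as counts over the families. Intervals given with shares of cells are exact Clopper-Pearson intervals at 95% and cover counting error only. They take the cells as independent draws, although the animals behind them are not named. Reads made by PCR without molecular identifiers are not independent molecules.

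For a view of what lies in front of these genes, the 250 bases before the start site are shown for Cadm2, the leading Cadm gene, and for Cntn1 and Pcdh9, a pair with r = 0.53 over cells (0.40 to 0.49 in 6 of 15 alternative settings). RefSeq sequences (GRCm38.p6) were at hand for 47 start sites of 36 of the 55 members. Capitals mark 4 motifs on either strand: a GC box spelled GGGCGG, the CCAAT box, an E-box with the letters CAGATG, and a TATA box spelled TATAAA. The second was added after the sequences were read. The windows are chr16:67620909-67621158 on the minus strand for Cadm2, chr15:92050915-92051164 on the plus strand for Cntn1 (the most upstream of its 3 start sites) and chr14:93890680-93890929 on the minus strand for Pcdh9 (the most upstream of 2).
Cadm2: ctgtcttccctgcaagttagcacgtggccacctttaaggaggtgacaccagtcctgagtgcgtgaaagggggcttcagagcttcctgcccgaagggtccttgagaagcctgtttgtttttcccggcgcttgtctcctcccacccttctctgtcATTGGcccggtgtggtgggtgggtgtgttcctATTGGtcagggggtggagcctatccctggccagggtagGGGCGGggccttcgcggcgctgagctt
Cntn1: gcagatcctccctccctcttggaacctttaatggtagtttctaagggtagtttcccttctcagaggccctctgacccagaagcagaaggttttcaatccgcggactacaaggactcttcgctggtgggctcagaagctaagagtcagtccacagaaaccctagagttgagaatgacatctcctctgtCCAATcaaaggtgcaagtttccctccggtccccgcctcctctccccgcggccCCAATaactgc
Pcdh9: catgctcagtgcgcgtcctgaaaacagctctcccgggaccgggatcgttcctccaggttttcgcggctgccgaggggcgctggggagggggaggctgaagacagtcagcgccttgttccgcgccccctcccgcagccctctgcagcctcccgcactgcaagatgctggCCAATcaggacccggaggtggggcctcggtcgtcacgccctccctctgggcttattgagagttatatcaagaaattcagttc
CCAAT or its reverse occurred in each of these 3 windows, in 42.6% of the members' 47 windows and in 33.8% of all 32851 windows of this length. The GC box occurred in the window of Cadm2, in 29.8% of the members' windows and in 32.7% of all. CAGATG was in 2.13% of the members' windows (1 of 47) against 14.4% of all, and TATAAA in 8.51% against 12.4%. The 32851 windows are not limited to genes of the table, and some members gave more than 1 window. The members' windows held a median of 9 CG dinucleotides and 58% G and C, where all windows held 6 and 52.4%. A match is a match of letters only.

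At the limit of 10 RPM most adhesion genes, like most genes of the table, were found in a minority of the neurons, and a few in almost all. This depends on the limit: with 1 RPM 39 members were present in at least 25 cells, and with 1 read 44. The shares of all genes at these lower limits were not counted, so these counts have no background. Of the 55 members, 19 (34.5%) were at 10 RPM or more in at least 25 of the 49 cells, where 38.2% of all 9020 genes were. At 100 RPM the count was 6 members (10.9%), against 13.7% of all genes, and 5 members had a read in every cell (9.09%, against 8.1%). The median number of cells at 10 RPM was 20 for the members and 20 for all genes, so the members as a set were present about as broadly as the rest of the table. 13 members reached 1000 RPM in at least 1 cell (23.6%), where 17.1% of all genes did, among them Ncam1, Nrxn2, Nrxn3, Cadm1, Cadm2, Cntn1, Pcdh7, Pcdh9, Pcdh17, Pcdh19, Cdh22 and Slitrk3. At the other end, 11 members had a median of 0 RPM. The number of all genes with such a median was not counted. The median of the members' medians was 3.09 RPM, and that of all genes was 3.87 RPM.

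**Figure D1:**
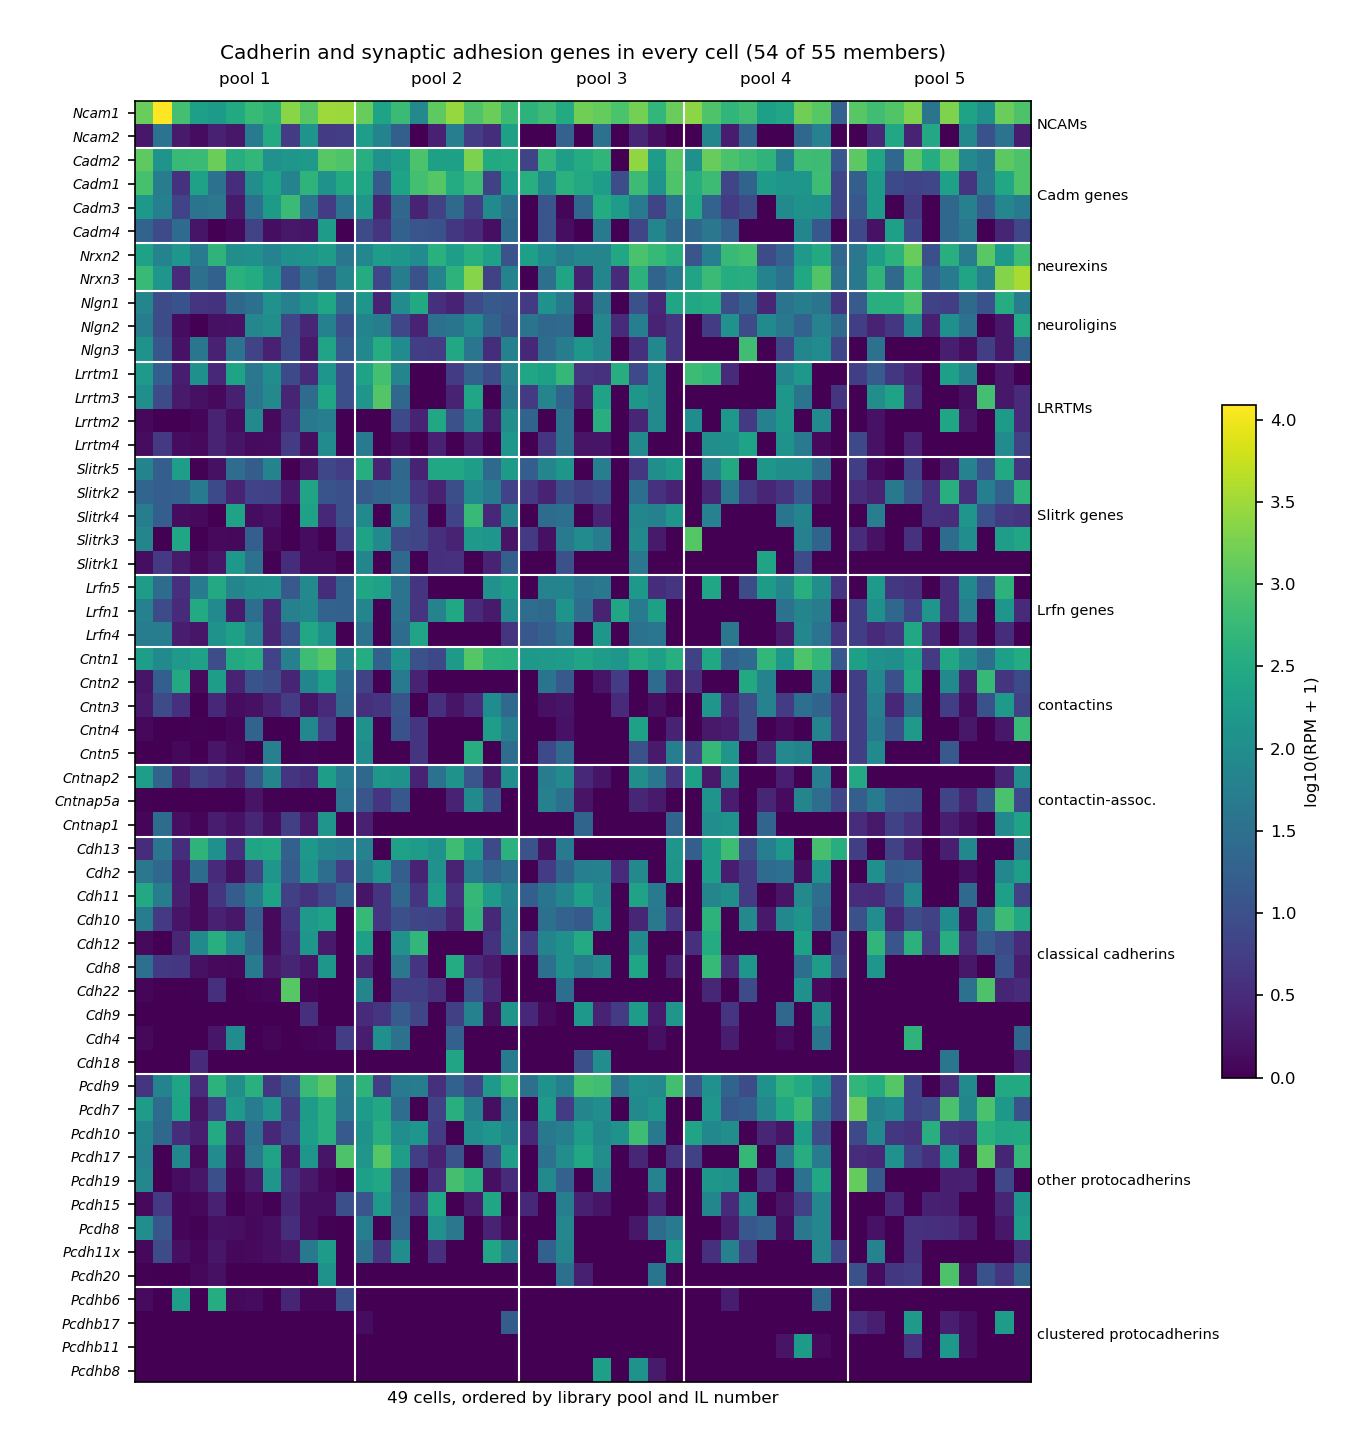
Level of 54 of the 55 adhesion genes (rows, by family) in each of the 49 cells (columns, by library pool), as log10(RPM + 1). Ncam1, Cadm2 and Nrxn2 form near-continuous bands, while most cadherins, protocadherins and contactins appear as scattered cells, and the 4 Pcdhb genes are almost empty.

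Ncam1, a homophilic immunoglobulin-domain protein of axon bundling that carries polysialic acid, was the leading member. Its level ranged from 18.5 to 12215 RPM with a median of 873, and it was the only member at 10 RPM or more in 49 of 49 cells (100%, 92.7 to 100%). The highest value was that of IL02 in pool 1, and the next was 3098 RPM in IL11 of the same pool, so a single cell stood far above the others and held 20.2% of the gene's summed RPM. That cell had 258130 reads and 1.55% hemoglobin reads, and only 3 of its members were at 100 RPM or more. Ncam1 (ENSMUSG00000039542.16, chr9:49502136-49798925, minus strand, GRCm38) was the highest of all members in 22 cells. Its relative Ncam2 was at 10 RPM or more in 19 cells, with a median of 2.48 RPM and a highest value of 319.

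Within the Ncam genes, Ncam1 took a median of 99.8% of the family's RPM. The exception was IL05 of pool 5, where Ncam1 was at 36.3 RPM, Ncam2 at 289 RPM and Ncam2 took 88.8%. In that cell 4 of the 5 microglial markers listed were at 100 RPM or more and summed to 3934 RPM, where the median over cells was 7.87, and only 7 members were present, the fewest of any cell. Their part in these values was not tested.

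Neurexins, the presynaptic partners of several of these families, were described by Nrxn2 and Nrxn3. Nrxn2 (ENSMUSG00000033768.17, chr19:6418731-6544169, plus strand) ranged from 8.04 to 1372 RPM, with a median of 146, and was present in 47 cells. For Nrxn3, between 0 and 3583 RPM were found, with a median of 66.7, and it was present in 41 cells. Nrxn2 thus had a higher median and a narrower range than Nrxn3. Neurexin genes make long and short proteins from different start sites, and reads of the 3′ end, which these forms have in common, do not tell them apart.

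The distribution of Nrxn3 had a long upper end. It was at 3583 RPM in IL10 of pool 5, at 2192 in IL07 of pool 2, at 2165 in IL09 of pool 5 and at 965 in IL08 of pool 4, and at 617 RPM or less in the others. Of these 4 cells, IL10 of pool 5 had 3 of the 6 inhibitory markers at 10 RPM or more (Gad2 at 552 RPM, Slc32a1 at 462), IL07 of pool 2 had 4 (Gad2 at 419, Slc32a1 at 389), and IL08 of pool 4 had all 6 (Sst at 5288 RPM, Lhx6 at 383). IL09 of pool 5 had 1, Slc32a1 at 64.5 RPM, with the excitatory gene Neurod2 at 502. Over the 17 cells with at least 2 inhibitory markers the median of Nrxn3 was 333 RPM, from 18.8 to 3583, and over the other 32 it was 40.7 RPM, so the ranges overlapped. Many of the 17 cells also had at least 2 of the 3 excitatory markers, such as IL01 of pool 2 with 3 of each kind. The split is thus not one of inhibitory against excitatory neurons. Of the 44 members at 10 RPM or more in at least 10 cells, 33 had the higher median in these 17 cells and 11 the lower, where of the 7420 genes of the table that met the same limit 4803 had the higher and 2480 the lower. The 17 cells also had more genes at 10 RPM (a median of 4150 against 3818).

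The postsynaptic partners of the neurexins were lower and more divided. Nlgn1, found mainly at excitatory synapses, ranged from 0 to 827 RPM with a median of 24.8 and was present in 30 cells. Nlgn2, the neuroligin of inhibitory synapses, ranged from 0 to 312 RPM with a median of 18.3 (25 cells), and Nlgn3 from 0 to 669 RPM with a median of 6.14 (22 cells). The exons of Nlgn3 share 3823 bases with Gm21986 on the same strand. How reads of shared bases were counted is not stated, so the level of Nlgn3 may be affected. Among the 44 cells with a neuroligin, Nlgn1 was highest in 16, Nlgn3 in 15 and Nlgn2 in 13. A cell had 1 neuroligin in 20 cases, 2 in 15 and 3 in 9.

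A neurexin and a neuroligin together were present in 44 of 49 cells (89.8%, 77.8 to 96.6%). Every cell had a neurexin at 10 RPM or more, so these are simply the cells with a neuroligin. The 5 cells without a neuroligin at 10 RPM were IL03 and IL05 of pool 1, IL05 and IL08 of pool 5 and IL06 of pool 3. Their depths were, in that order, 8388011, 3757627, 770702, 209850 and 493604 reads, and all had a read of at least 1 neuroligin. Between 24.9 and 39.2% of all genes were at 10 RPM or more in these cells, where the median over cells was 45.9%. The part of depth or breadth in the missing neuroligins was not tested. In IL05 of pool 1, Nrxn2 was at 446 RPM while Nlgn1, Nlgn2 and Nlgn3 were at 2.93, 0.532 and 1.33.

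Of the other postsynaptic families, none of the 4 LRRTMs, which bind neurexins, was present in 25 cells. Lrrtm1 came nearest with 24 cells, a median of 8.87 RPM and a highest value of 733 in IL02 of pool 2. Lrrtm3 was highest in the same cell, at 979 RPM, and was present in 20 cells. Lrrtm2 was present in 17 cells and Lrrtm4 in 11. At least 1 LRRTM was present in 35 cells, and there Lrrtm1 was the highest in 16, Lrrtm2 in 10, Lrrtm3 in 7 and Lrrtm4 in 2.

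Slitrk genes code for leucine-rich repeat proteins of the postsynaptic side. Slitrk5 led them, from 0 to 356 RPM with a median of 15.9 in 27 cells. Slitrk2 was present in 20 cells, Slitrk3 and Slitrk4 in 18 each and Slitrk1 in 7. Slitrk3, which acts at inhibitory synapses, had a median of 2.35 RPM, was at 1014 RPM in IL01 of pool 4 and at 263 RPM in the next cell, so that 1 cell gave 34.4% of its summed RPM. That cell had 11.6% hemoglobin reads. Of the Lrfn genes, Lrfn5 ranged from 0 to 430 RPM (median 34.5) and Lrfn1 from 0 to 319 RPM (median 25.1), each in 28 cells, and Lrfn4 was present in 20. Of the 55 members, Lrfn5 had the highest correlation with depth (r = 0.49 with log10 reads over 49 cells).

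Cadm genes, coding for immunoglobulin-domain proteins that assemble synapses, were present in every cell by at least 1 member. Cadm2 (ENSMUSG00000064115.13, chr16:66655421-67620908) ranged from 0 to 2519 RPM with a median of 381, in 47 cells. Cadm1 ranged from 2.37 to 1020 RPM with a median of 173 and was present in 39 cells, Cadm3 in 32 (median 24.8, with 361 exon bases shared with Ackr1 on the same strand) and Cadm4 in 18. Cadm2 was the highest of the family in 34 cells, Cadm1 in 12, Cadm3 in 2 and Cadm4 in 1. In IL06 of pool 1 Cadm2 took 99.0% of the family's RPM, while Cadm1 took 98.4% in IL01 of pool 3, where hemoglobin took 68.8% of the reads. The pool medians of Cadm1 ran from 34.4 to 288 RPM, and those of Cadm2 from 306 to 627.

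**Figure D2:**
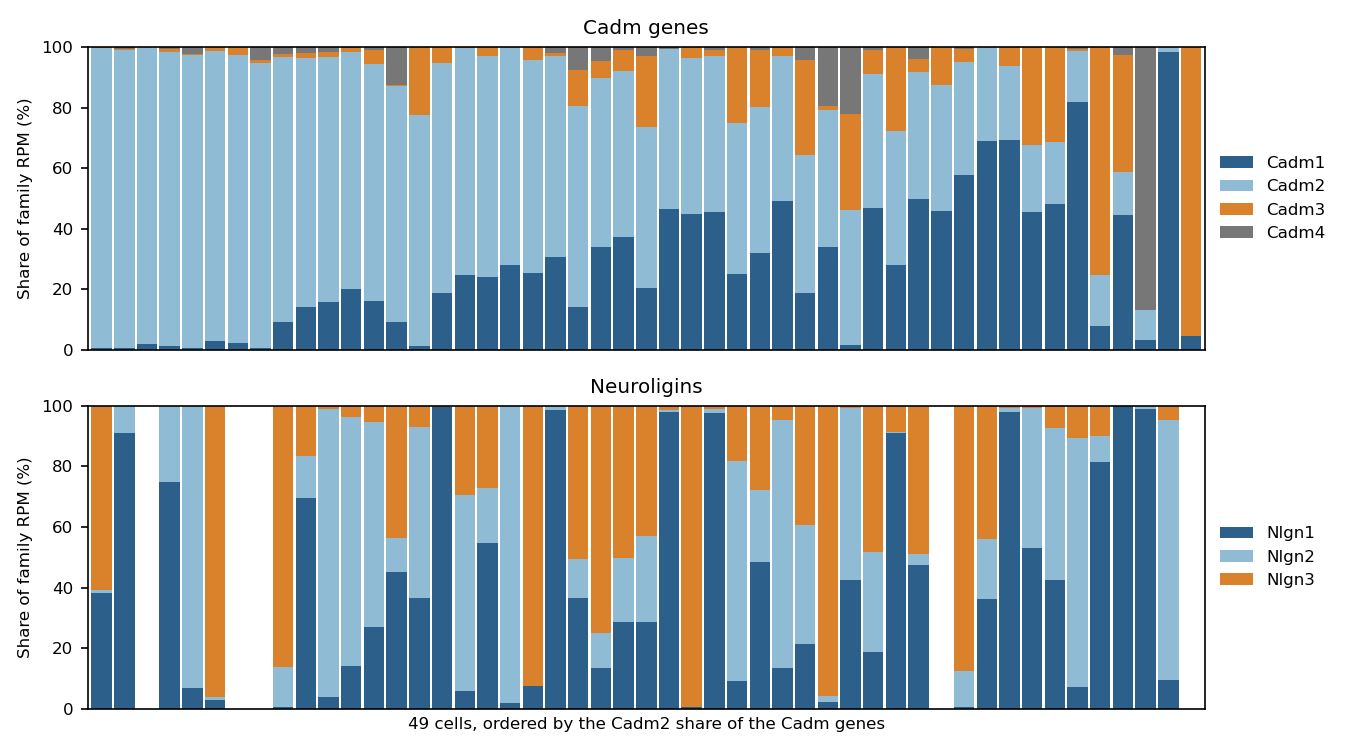
Share of each gene in the summed RPM of its family (y axis, %) in each of the 49 cells (x axis, the same order in both panels, by the share of Cadm2), for Cadm genes and neuroligins. Empty columns are the 5 cells with no neuroligin at 10 RPM. Cadm2 ranges from 0 to 99.0% of the Cadm genes, and the neuroligin shares change from cell to cell without following that order by eye.

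**Figure D3:**
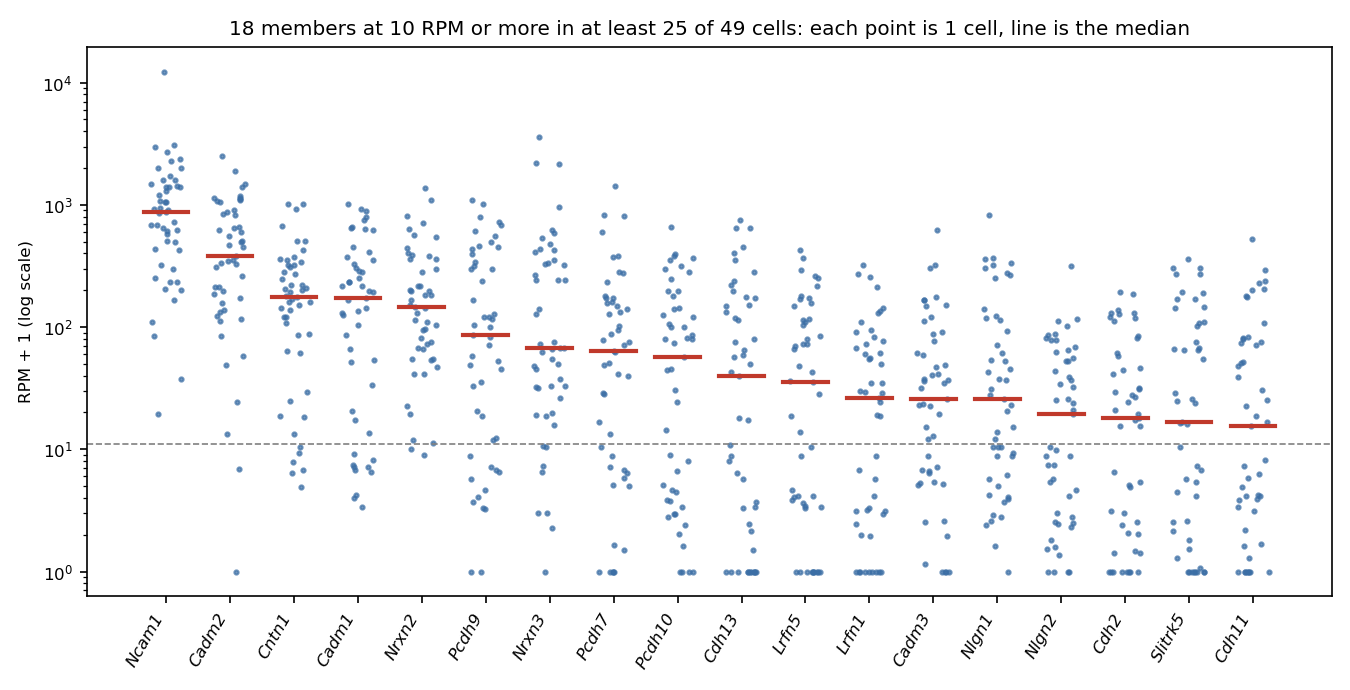
Level of 18 of the 19 members present in at least 25 cells, in order of their median: each point is 1 of 49 cells, the red line is the median, the dashed line is the limit of 10 RPM, and the y axis is RPM + 1 on a log scale. Medians fall from 873 RPM for Ncam1 to 14.6 RPM for Cdh11, and of the members drawn Ncam1 alone has no cell under the dashed line.

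Contactins are immunoglobulin-domain proteins held in the membrane by a lipid anchor. Cntn1 ranged from 3.89 to 1016 RPM with a median of 176, had a read in every cell and was the highest contactin in 36 of the 45 cells with 1 present. Cntn2, of migrating neurons and axon bundles, was present in 18 cells, with a highest value of 538 RPM, Cntn5 in 12, Cntn3 in 11 and Cntn4 in 10. The contactin-associated proteins, which are related to neurexins and cluster channels along the axon, were lower. Cntnap2, the highest of them, ranged from 0 to 289 RPM with a median of 3.24 in 22 cells, Cntnap5a was present in 14 and Cntnap1, of the paranodal junction of myelinated axons, in 9.

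Among the 10 cadherins of the table, none was found in most neurons by a wide margin. Cdh2 (N-cadherin) was present in 28 cells, with a median of 17.2 and a highest value of 192 RPM. Cdh13 (T-cadherin, which has a lipid anchor in place of a cytoplasmic tail) was present in 27 cells and ranged from 0 to 748 RPM with a median of 38.7. Cdh11 followed with 25 cells and a median of 14.6 RPM. By the count of cells at 100 RPM or more, Cdh13 came first (17) and Cdh12 second (12), before Cdh2, Cdh10 and Cdh11 with 9 each. Cdh12 had a median of 2.98 RPM over all cells and of 126 RPM over the 20 cells where it was present. The exons of Cdh12 share 198 bases with Gm49685 on the same strand. Cdh10 was present in 22 cells, Cdh8 in 15, Cdh9 in 8, Cdh4 in 7, Cdh22 in 6 and Cdh18 in 4. Cdh22 was at 1065 RPM in IL09 of pool 1 and at 867 in IL08 of pool 5, and at 113 RPM or less elsewhere.

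The cadherins present differed from cell to cell. A cell held between 0 and 7 of the 10, with a median of 3, and 4 cells held none. The 49 cells showed 41 distinct combinations, 36 of which occurred in 1 cell only. With a limit of 100 RPM the number was 28, and with 1 RPM it was 43. Combinations of other sets of 10 genes were not counted, so the number is not shown to be particular to cadherins. The most frequent set after none at all was Cdh2, Cdh11 and Cdh13, in 3 cells. The type II cadherins (Cdh8, Cdh9, Cdh10, Cdh11, Cdh12, Cdh18 and Cdh22) gave at least 1 member in 41 cells and at least 2 in 27. Cdh2 or Cdh4 was present in 30 cells and Cdh13 together with Cdh2 in 18. The highest cadherin was Cdh13 in 14 of 45 cells (31.1%, 18.2 to 46.6%), Cdh11 or Cdh12 in 7 each, Cdh10 in 6, Cdh8 in 4 and others in the rest. Presence also moved with breadth, as described for all members below, and its part in the number of combinations was not tested.

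**Figure D4:**
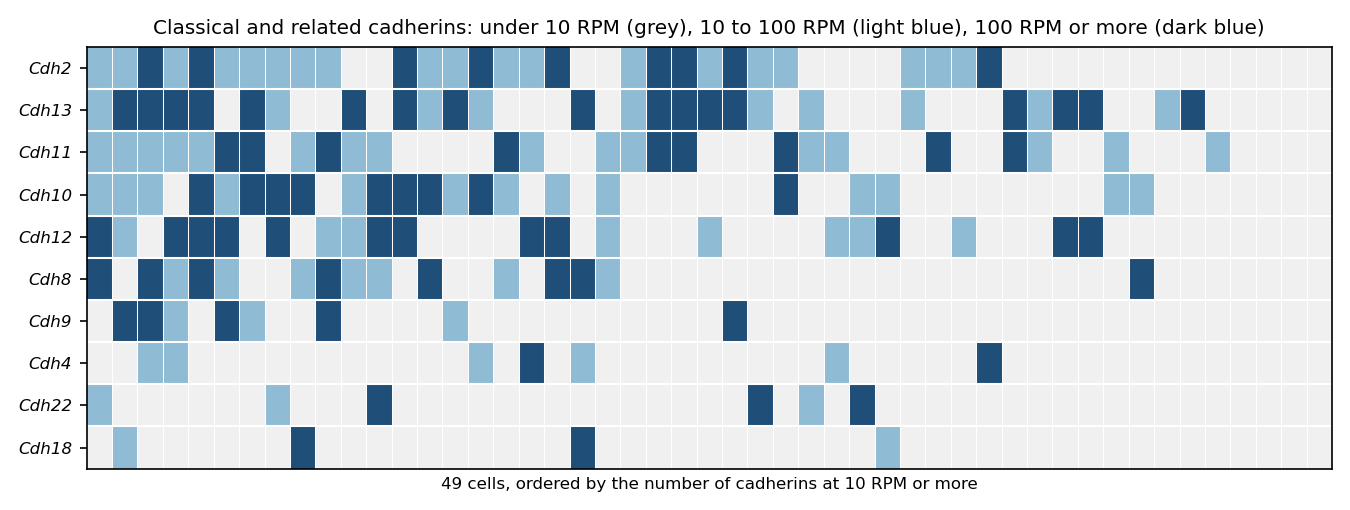
Presence of the 10 cadherins (rows, by number of cells) in the 49 cells (columns, by the number of cadherins present): grey is under 10 RPM, light blue 10 to 100 RPM and dark blue 100 RPM or more. Cells range from 7 cadherins on the left to none in the 4 cells on the right, and few columns look alike.

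The non-clustered protocadherins were spread in the same way, with up to 8 of 9 in a cell, a median of 3 and 35 combinations. Pcdh9 led them: it ranged from 0 to 1086 RPM with a median of 84.7, was present in 37 cells and was the highest of the family in 19 of 46. Pcdh7 was present in 34 cells (median 62.5, highest 1421 RPM in IL01 of pool 5) and Pcdh10 in 30 (median 56.2, highest 662). Without pool 2 the median of Pcdh10 was 36.5 RPM. Pcdh17 was present in 23 cells, and although its median was 7.44 RPM, it was at 1091 RPM in IL08 of pool 5, at 1022 in IL02 of pool 2 and at 874 in IL12 of pool 1. Pcdh19, an X-linked gene mutated in a form of epilepsy, had a median of 1.17 RPM, was at 1318 RPM in IL01 of pool 5 and at 753 in IL06 of pool 2, and was present in 17 cells. Pcdh8 was present in 14 cells, Pcdh11x in 12, Pcdh15 in 10 and Pcdh20 in 5. A single cell, IL06 of pool 5, gave 78.6% of the summed RPM of Pcdh20.

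Clustered protocadherins, the genes that give neurons their individual surface codes, gave 4 of the 55 members. None of the 13 annotated Pcdha genes and none of the 21 Pcdhg genes was among the rows analysed here. In the annotation all genes of each of these clusters share their last exon, and a read of the 3′ end from that exon cannot be given to 1 gene. Of the 22 Pcdhb genes, which with 2 exceptions have a last exon of their own, 4 were: Pcdhb6 and Pcdhb17 were present in 3 cells each and Pcdhb8 and Pcdhb11 in 2. The highest values were 339 RPM for Pcdhb6, 198.5 for Pcdhb8, 175 for Pcdhb17 and 168 for Pcdhb11.

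For the 4 Pcdhb genes the low reads lay mostly in certain library pools. In pools with a cell at 100 RPM or more of the same Pcdhb gene, 16 of 42 values under 10 RPM had a read (38.1%). In the other pools 2 of 144 had (1.39%). Pcdhb6, for example, had reads under 10 RPM in 8 cells, 7 of them in the pool of its 2 high cells, which is pool 1, the deepest. Over the 15 members at 100 RPM or more in at most 2 pools the shares were 47.4 and 27.8%, and not all members had the higher share in those pools. For Cdh4, 1 of 14 values under 10 RPM had a read there and 10 of 28 elsewhere, and for Lrrtm4 4 of 11 and 17 of 27. Presence was counted from 10 RPM throughout, and the part of depth or of reads passing between libraries of a pool was not tested.

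Levels in RPM are not corrected for gene length. Per kilobase of exon the order of the medians was much the same at the top. Ncam1 came first with 101 RPM per kb and Cadm2 second with 38.8, and Cntn1 (18.7) and Cadm1 (16.6) held ranks 4 and 5 in both orders. Lrfn1 moved from rank 13 by RPM to rank 8 per kb, and Nlgn1 from 15 to 20. Since the kit reads 3′ ends, longer genes need not give more reads, so both orders are given.

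Many members lie in very large genes. The median span was 154 kb, against 26 kb for all genes found in the annotation, and 32 of 55 members (58.2%) spanned 100 kb or more, against 16.4% of the genes. Of the 43 genes in the table that span 1000 kb or more, 8 were members, among them Nrxn3, Cdh12, Cdh13, Cntn4, Cntn5, Cntnap2 and Pcdh15. The presence of those named ran from 41 cells for Nrxn3 to 10 for Pcdh15 and Cntn4, so a long gene could be found broadly or rarely. Small genes were among the members too, with 16 under 20 kb, such as Lrfn1, Nlgn2 and Slitrk5.

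Cells differed widely in how many adhesion genes they held. The number of members at 10 RPM or more ranged from 7 to 40 per cell with a median of 22, and went with the number of all genes at 10 RPM (r = 0.85 over 49 cells) and with log10 reads (r = 0.50). The members' share was above that of all genes in 22 cells and below it in 27, with differences between -19.6 and 13.3 percentage points. Their summed level ranged from 599 to 13396 RPM with a median of 5516, which is 0.552% of the reads, and log2 of it had a correlation of -0.05 with log10 reads. Depth thus went with the number of members and hardly with their sum. The pool medians of the sum ran from 4183 RPM in pool 3 to 7028 in pool 5.

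**Figure D5:**
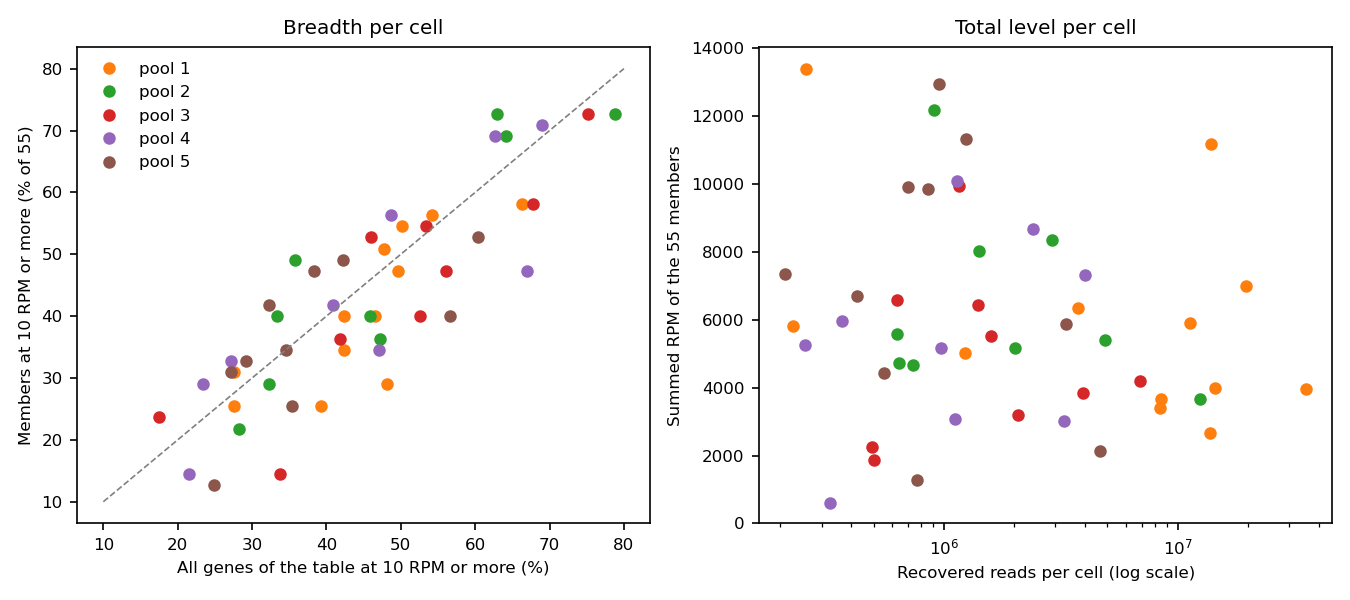
Left, the share of the 55 members at 10 RPM or more against the share of all 9020 genes, with the line of equal shares. Right, the summed RPM of the members against the recovered reads (log scale). Each point is 1 of 49 cells, coloured by library pool. Points follow the line on the left, and no slope is seen on the right.

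Nrxn3 was the highest member in 3 of the 4 cells with the largest sums. IL02 of pool 1 (13396 RPM) owed its sum to Ncam1. IL10 of pool 5 followed with 12959 RPM, led by Nrxn3, with 3 inhibitory markers at 10 RPM or more, and was the highest cell for 7 members, among them Nrxn3, Nlgn2, Cdh2 and Cntn4 (571 RPM). IL07 of pool 2 (12192 RPM) was also led by Nrxn3 and had 4 of the inhibitory markers. IL09 of pool 5 (11323 RPM, again led by Nrxn3, with 1 inhibitory marker) was the highest for 5, among them Cdh10 (643 RPM), Lrfn5 and Cntnap5a (830 RPM), and had 3 of 5 oligodendrocyte lineage markers at 100 RPM or more. The smallest sum, 599 RPM, was that of IL09 of pool 4, with 324131 reads, where Cdh13 at 355 RPM was the only member at 100 RPM or more.

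By the share of pairs with r of at least 0.5, members rose and fell together about as often as all genes of the table. Of the 946 pairs of the 44 members at 10 RPM or more in at least 10 cells, 5 (0.529%) had a Pearson correlation of at least 0.5 of log2(RPM + 1) over the 49 cells, where 0.469% of all gene pairs did. The count ran from 4 to 15 pairs when a library pool was left out (15 without pool 1, 11 without pool 5). All gene pairs were not counted again for these settings. The median correlation was 0.15, and 164 pairs were below 0. The cells share depth, pools and the total that RPM is scaled to, so these are descriptions. Cntn3 and Cntnap5a had the highest value (r = 0.62), but both were present in only 8 cells, and r was 0.48 without the 2 highest cells. Cntn1 and Pcdh9 had r = 0.53, and 0.49 without their 2 highest cells, and r was as low as 0.40 when cells were thinned to 1 depth. Cdh2 and Cadm1 had r = 0.50. The lowest value, -0.31, was that of Cdh13 and Pcdh10.

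Over the whole table, the genes most like Cadm2 were Gria2 (r = 0.66), an AMPA receptor subunit, and Tnrc6b (r = 0.65), and for Ncam1 they were Scd2 (r = 0.60), a fatty acid desaturase, and Atxn2l (r = 0.59). Each was the highest or second highest of 7419 genes searched over 49 cells.

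Genes of 6 hand-picked lists, of partners and of related adhesion proteins, were together present more often than the members, but not in every list. Their pooled share depends on which lists were chosen. Of 56 genes of 6 partner lists found in the table, 31 (55.4%) were at 10 RPM or more in at least 25 cells, against 38.2% of all genes. All 3 LAR-type receptor phosphatases were, led by Ptprd, a ligand of Slitrks, with a median of 338 RPM. Of the synaptic scaffolds 13 of 18 were, led by Shank1 (median 417 RPM), and of the other ligands 9 of 17, led by the latrophilin Adgrl1 (185 RPM). Among the L1 family and nectins 4 of 8 were (Nptn, median 424 RPM). Only 1 of 6 catenins, Ctnnd2 (49.3 RPM), and 1 of 4 giant cadherins, Celsr2 (32.7 RPM), were. Ctnnb1, which links cadherins to the cytoskeleton, was at 10 RPM or more in 5 cells, with a median of 1.02 RPM.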

How the data were processed

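Each cell was drawn into a patch pipette. SMART-Seq v4 3′ DE chemistry gave amplified cDNA, which Nextera XT turned into libraries. The submitters' notes name STAR, HTSeq and mm10, without versions. The authors normalized to RPM, and the deposited table holds RPM that is not log transformed. Every value was divided by the step of 1 read in its cell, which gave whole numbers, to a tolerance of 0.01, for 100% of the nonzero entries. Since the labels name no animal, the 49 cells were 1 sample without tests, and no count model was needed. Presence was 10 RPM, a correlation used log2(RPM + 1), and the read recovery, presence counts and correlations were tested on simulated data. Coordinates, spans and exon lengths are those of GENCODE M21 on GRCm38, in which 8835 genes and all 55 members were found.

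The members and lists were chosen with earlier results of these data known. Genes were named if they had the highest median of their family or partner list, were present in 25 cells, reached 1000 RPM, were neurexins or neuroligins, belonged to the 3 leading pairs, were among the 3 cadherins with most cells at 100 RPM (ties included) or were the nearest genes of the 3 leading members. Other members were named to account for all 55, and Ctnnb1 after its value was seen. Some planned genes are not reported here. Levels of members whose exons overlap another gene (3 on the same strand, 16 on the opposite strand) may be affected, since the counting of such reads is not stated. The software was matplotlib 3.10.9, scipy 1.17.1, pandas 2.3.3 and numpy 2.4.6 under Python 3.11.15.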

Additional observations from a re-analysis of the deposited data

How the results depend on the processing

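With 1 read in place of 10 RPM, 44 members were present in at least 25 cells, the median was 40 members per cell and 100% of the cells held a neurexin and a neuroligin. With 1 RPM these values were 39, 35 and 100%, and with 100 RPM they were 6, 12 and 42.9%, so the counts depend on the limit. All genes of the table were not counted at 1 read or 1 RPM. The pairs at r of 0.5 or more were 3 with cells thinned to 358412 reads (44 cells kept), 3 relative to reads outside mitochondrial and hemoglobin genes, 3 with log10 reads taken out, 9 when centred within pools and 11 without the 8 cells of 1% or more hemoglobin. Leaving out a library pool gave 4 to 15 pairs (15 without pool 1, 11 without pool 5), 15 to 22 members in the same share of cells, 22 members per cell, sums of 5260 to 5703 RPM, 87.5 to 92.3% of cells with a neurexin and a neuroligin, and 33 to 34 cadherin combinations. In 2 alternatives chosen after seeing the data, without the 17 cells with inhibitory markers there were 15 pairs and 27 combinations, and without the 24 cells with microglial or oligodendrocyte markers 20 pairs and 24 combinations, over fewer cells in both cases. The share over all gene pairs was counted in the main setting only, so the pair counts of the alternatives have no background. Without the cells with inhibitory markers 13 members were present in the same share of cells, with 20 per cell. There 84.4% of cells held a neurexin and a neuroligin. Without the cells with microglial or oligodendrocyte markers these values were 20, 22 and 92%. No alternative beyond those named moved a count by more than 1.5 times. Of the medians named, that of Pcdh10 fell to 36.5 RPM without pool 2, that of Pcdh9 was 44.4 RPM without the cells with microglial or oligodendrocyte markers, and those of Nrxn3 and Cadm1 were 40.7 and 114 RPM without the cells with inhibitory markers. Across the alternatives the correlation ranged from 0.49 to 0.70 for Cntn3 and Cntnap5a and from 0.40 to 0.58 for Cntn1 and Pcdh9, whose r was under 0.5 in 6 of 15. The cause of these shifts was not tested. The order of single rare members is limited by depth, since 1 read is worth 4.77 RPM in the shallowest cell. No paired analysis was possible because the 49 cells form 1 group.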
